A study of Mus musculus with 2 samples.

Results

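Calprotectin and neutrophil granule genes were followed across the white blood cells of a mouse tumour. The list held 10 genes, S100a8, S100a9, Ltf, Ngp, Camp, Lcn2, Mmp8, Mmp9, Retnlg and Lrg1, chosen by name, and 9 of them had a row among the 22836 genes of the count table; Camp was not analysed here. CD45+ cells, the surface mark of blood-derived cells, came from subcutaneous Colon26 tumours, a mouse colon carcinoma line, in wild-type BALB/c mice, although the source label calls them intestinal. The 14 mice were marked by hashtag antibodies and are held in 1 count table from the BD Rhapsody whole-transcriptome system. All mice carried the tumour and were sampled on day 10 after inoculation. The Control group (3 mice) is described as untreated. The minP1 group (4 mice) received 0.08 µg of an immune-stimulating peptide of HMGN1, a nucleosome-binding protein, into the peritoneum on day 9. The PDL1 group (3 mice) received 200 µg of an antibody against PD-L1, a checkpoint ligand, on days 4 and 8. The minP1_PDL1 group (4 mice) received both agents at those doses and days. Tumours were digested with enzymes and passed through a Percoll density step before capture, and the effect of that step on neutrophils, which are dense cells, was not tested. The design text speaks of separate runs without giving a run for each mouse, so run and treatment cannot be told apart.

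Neutrophils fill their granules in a fixed order while they mature in the bone marrow. Azurophil granules with myeloperoxidase and elastase come first, specific granules with lactoferrin next, gelatinase granules after them, and secretory vesicles last, and the transcripts of each set fall as the cell moves on. S100A8 and S100A9 are different in kind: they form calprotectin, a cytosolic calcium-binding pair that makes up much of the protein of a neutrophil and that monocytes also carry.

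After removal of barcodes with over 25% mitochondrial reads or under 200 genes, 7732 cells remained, 466 to 724 in each mouse, with 26007834 to 51230461 reads a mouse. Reads had not been collapsed to molecules, so a gene's level is given as CPM, its reads per 1000000 reads of the cells concerned, and a share of cells is the share with at least 1 read. Clusters were made without the members and other granule genes and named from marker lists, and names such as neutrophil stand for neutrophil-like cells throughout. No barcode number occurred under more than 1 hashtag (0 of 8115 barcodes). The neutrophil cluster held 569 cells, 12 to 69 a mouse, and 11 of its 50 leading genes were neutrophil markers outside the list, among them G0s2, Stfa2l1, Cxcr2 and Csf3r. A doublet score above 0.5 was found in 34.1% of these cells against 26.4% of all kept cells. In the second Control mouse (Control_2) that share was 60.9%, with a median of 51282 reads a neutrophil, whereas the 13 other mice had medians of 12002 to 32110 reads. When the 9 genes and the other granule genes were allowed into the clustering, 504 cells formed the neutrophil cluster. Of the 569 cells, 67 moved to macrophage or monocyte clusters. Those 67 had a median of 92379 reads and 63 of them had a doublet score above 0.5, and results that rest on neutrophil levels are also given without cells of high score.

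The 5 promoters below are shown because their genes form the pairs on which the results turn: the calprotectin pair, which was found together in most neutrophils, and the specific granule genes Ltf, Ngp and Lcn2, which met in very few. Each runs 5′ to 3′ on the gene's strand from 250 bases before to 50 bases after the transcription start in RefSeq (GRCm38.p6). Capitals mark matches on either strand to TTNNGNAA, a core recognised by the C/EBP factors of granulocyte development, and to GAGGAA, a core recognised by PU.1. None of the matches overlapped one another.
S100a8: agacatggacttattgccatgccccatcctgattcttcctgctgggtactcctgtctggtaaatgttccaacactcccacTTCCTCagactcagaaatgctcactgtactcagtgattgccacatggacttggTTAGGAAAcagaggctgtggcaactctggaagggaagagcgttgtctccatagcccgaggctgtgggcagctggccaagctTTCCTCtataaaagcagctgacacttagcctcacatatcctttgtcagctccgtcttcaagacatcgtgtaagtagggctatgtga
S100a9: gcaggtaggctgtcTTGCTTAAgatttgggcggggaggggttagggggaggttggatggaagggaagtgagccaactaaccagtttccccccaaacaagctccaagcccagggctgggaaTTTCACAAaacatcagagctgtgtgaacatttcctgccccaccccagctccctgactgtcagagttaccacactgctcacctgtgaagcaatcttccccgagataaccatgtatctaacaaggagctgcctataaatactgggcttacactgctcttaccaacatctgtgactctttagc
Ltf: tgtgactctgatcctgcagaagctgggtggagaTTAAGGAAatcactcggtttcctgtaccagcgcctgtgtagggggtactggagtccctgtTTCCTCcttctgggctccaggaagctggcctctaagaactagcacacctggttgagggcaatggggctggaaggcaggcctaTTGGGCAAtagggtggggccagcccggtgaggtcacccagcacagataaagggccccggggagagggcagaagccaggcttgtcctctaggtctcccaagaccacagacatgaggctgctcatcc
Ngp: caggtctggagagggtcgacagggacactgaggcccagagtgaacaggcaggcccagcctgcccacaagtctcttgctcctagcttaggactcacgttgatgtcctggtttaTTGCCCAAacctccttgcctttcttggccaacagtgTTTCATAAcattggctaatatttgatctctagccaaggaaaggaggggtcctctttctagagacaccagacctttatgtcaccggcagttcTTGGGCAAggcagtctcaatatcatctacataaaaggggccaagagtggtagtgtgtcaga
Lcn2: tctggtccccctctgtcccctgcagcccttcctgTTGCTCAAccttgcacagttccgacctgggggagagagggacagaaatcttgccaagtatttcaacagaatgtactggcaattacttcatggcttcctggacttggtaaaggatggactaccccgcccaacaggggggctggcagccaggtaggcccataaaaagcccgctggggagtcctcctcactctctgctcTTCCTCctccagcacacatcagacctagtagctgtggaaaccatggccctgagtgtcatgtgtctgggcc
The S100a8 window lies at chr3:90668821-90669120 on the plus strand and the S100a9 window at chr3:90695672-90695971 on the minus strand. The Ltf window lies at chr9:111019042-111019341 and the Ngp window at chr9:110419558-110419857, both on the plus strand of chromosome 9, and the Lcn2 window at chr2:32387690-32387989 on the minus strand. Ngp had 3 matches to the C/EBP core and none to the PU.1 core. S100a9 had 2 and none, S100a8 had 1 and 2, Ltf had 2 and 1, and Lcn2 had 1 and 1. Of 32851 RefSeq promoters of the same length, 40.7% held the C/EBP core and 28.3% the PU.1 core. Of the other members, the Mmp8 window held 2 C/EBP matches and 1 PU.1 match, Retnlg held 1 C/EBP match, and the Lrg1 window held neither core. Mmp9 is named only.

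S100a8 and S100a9 lie near each other on chromosome 3 and dominated the list. In GENCODE M21 (GRCm38), S100a8 spans chr3:90668978-90670035 on the plus strand and S100a9 spans chr3:90692632-90695721 on the minus strand. S100a9 was found in 541 of 569 neutrophils and S100a8 in 495 of 569. The mean level over the 14 mice was 8732 ± 2603 CPM for S100a9 (SD, n = 14) and 5570 ± 2194 CPM for S100a8. S100a9 ran from 3059 CPM in Control_2 through a median of 8906 CPM to 12811 CPM, and S100a8 from 2205 CPM in the same mouse through a median of 5392 CPM to 10879 CPM. Both genes were lowest in the mouse with the highest doublet share. Without cells of high doublet score, 375 neutrophils remained and the means rose to 18332 ± 4096 CPM for S100a9 and 13133 ± 5780 CPM for S100a8. Per kilobase of exon, S100a9 reached 16728 CPM and S100a8 8026 CPM, and the next member, Retnlg, reached 588 CPM.

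The members fell into a steep order of how many neutrophils carried them. S100a9 was found in 95.4% ± 2.3 of a mouse's neutrophils (SD, n = 14) and S100a8 in 87.4% ± 5.1. Lrg1, a secreted glycoprotein also stored in granules, followed at 45.3% ± 10.5, and Mmp9, the gelatinase that gives gelatinase granules their name, at 43.1% ± 9.5. Lcn2, the siderophore-binding lipocalin of specific granules, was found in 22.2% ± 7.4, Retnlg, a resistin-like secreted protein of myeloid cells, in 16.8% ± 7.7, and Mmp8, the neutrophil collagenase of specific granules, in 12.004% ± 5.09. Ltf, the iron-binding lactoferrin, was found in 2.25% ± 1.82 and Ngp, a cystatin-like specific granule protein, in 1.61% ± 1.90. Ngp had reads in 10 neutrophils in all and Ltf in 13. All are protein-coding genes: in GENCODE M21 Lrg1 spans chr17:56119678-56122001 (minus strand), Mmp9 chr2:164940780-164955850 (plus), Lcn2 chr2:32384633-32388252 (minus) and Retnlg chr16:48872621-48874496 (plus). Mmp8 (chr9:7558456-7568485), Ltf (chr9:111019271-111042767) and Ngp (chr9:110419747-110423012) lie on the plus strand of chromosome 9.

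The order held in most mice at its wide steps and not at its narrow ones. S100a9 exceeded S100a8 in 13 of 14 mice, S100a8 exceeded Lrg1 in 14, and Mmp9 exceeded Lcn2 in 14. Mmp8 exceeded Ltf in 13 of 14 mice. Lrg1 exceeded Mmp9 in 7 of 14 mice, Lcn2 exceeded Retnlg in 9, Retnlg exceeded Mmp8 in 10, and Ltf exceeded Ngp in 5, and the means of these neighbours lay within 1 SD of each other. Thinning each cell to 10000 reads, which left 453 of the 569 neutrophils, gave S100a9 in 95.3% and Mmp9 in 38.6% on average, with Ngp in 1.36%. The plot of detection by mouse shows the order.

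**Figure D1:**
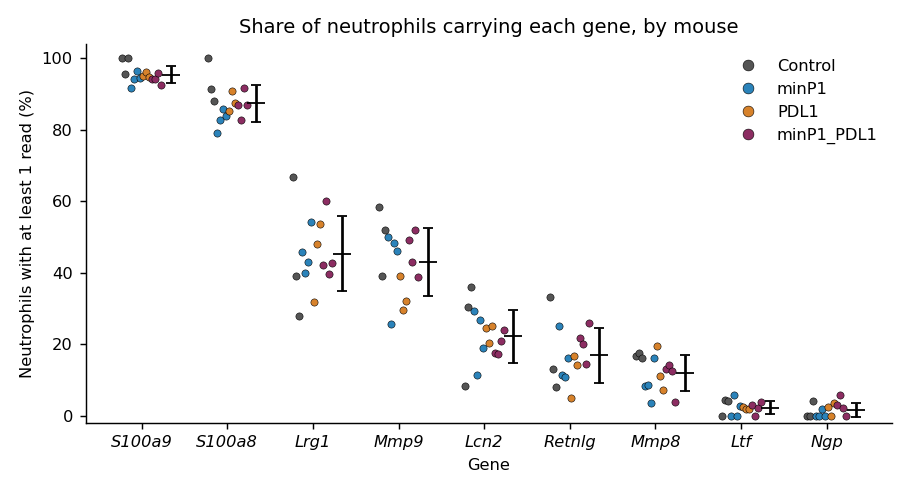
Percent of neutrophil-cluster cells with at least 1 read of each gene (vertical axis) for 9 genes (horizontal axis); each point is 1 of 14 mice, coloured by treatment group, and the bar is the mean ± SD over mice. S100a9 stands at 91.7% or above and S100a8 at 79.2% or above in every mouse, Lrg1 and Mmp9 overlap around 45.3% and 43.1%, and Ltf and Ngp lie near 2.25% and 1.61%.

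The early granule genes sat in a handful of cells. Of 3823 Ngp reads in neutrophils, 99.2% came from 4 cells with at least 100 Ngp reads each, a limit set after the values were seen. The cells came from 4 mice and held 2852 reads (minP1_PDL1_3), 443 reads (Control_3), 395 reads (minP1_PDL1_2) and 103 reads (minP1_3). All 4 cells also carried S100a8, S100a9, Lcn2, Mmp8, Mmp9, Retnlg and Lrg1, and all 4 had a doublet score below 0.5 (0.18 to 0.38). They made up 0.703% of neutrophils but held 45.6% of the neutrophil reads of Lcn2, 51.1% of those of Retnlg and 37.0% of those of Mmp8. Their part was smaller for genes of wide distribution: 15.3% for S100a8, 6.30% for S100a9, 6.97% for Mmp9 and 3.37% for Lrg1. Lactoferrin separated them, since 813 of the 1028 Ltf reads in neutrophils came from the cell of minP1_PDL1_3 and the 3 other cells had none. That cell also had 121 reads of Cd177, a surface protein of specific granules.

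Reads of azurophil genes were found in few cells of the cluster. Mpo, myeloperoxidase, had reads in 2 of 569 neutrophils, Elane, neutrophil elastase, in 1, Prtn3, proteinase 3, in 6, and Ctsg, cathepsin G, in 0, which allows a share of cells with a read of up to 0.527% (3 counts of the total, counting error only; the share of cells expressing the gene without a read is not limited by it). None of the 22 neutrophils with Ngp or Ltf reads carried Mpo, Elane, Prtn3 or Ctsg. Mki67, a marker of cycling cells, had reads in 2 of those 22 cells and in 50 of the 547 others, and in none of the 4 cells rich in Ngp. Cxcr2, the receptor that late neutrophils use to leave the marrow, had 11 to 141 reads in each of the 4 cells.

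Across single neutrophils the calprotectin pair moved most closely. The correlation of log2(CPM + 1) over 569 cells was 0.69 for S100a8 with S100a9 and at most 0.31, for S100a9 with Lrg1, in every other pair of members; it was 0.28 for Ngp with Mmp8, where 6 cells carried both. These cells share 1 count table and differ in depth, and the values are descriptive. S100a8 and S100a9 were found together in 489 cells, Lcn2 and Retnlg in 36, and Ltf and Ngp in 1.

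The same genes were then followed outside neutrophils, because each is also known from other cells. S100a8, S100a9, Retnlg and Lrg1 were highest in neutrophils among the 10 classes that had at least 10 cells in 6 or more mice, ranked by mean log2(CPM + 1). S100a9 exceeded the next class, macrophages (148 ± 86.1 CPM), by 6.03 ± 0.89 on the log2(CPM + 1) scale (SD, n = 14), higher in 14 of 14 mice (two-sided exact sign-flip permutation test, p = 0.000122, the smallest that 14 mice allow; adjusted p = 0.00198 over the 81 neighbouring pairs of classes compared). S100a8 exceeded monocytes (142 ± 132 CPM) by 5.80 ± 1.71, Retnlg exceeded macrophages (11.3 ± 7.9 CPM) by 4.34 ± 2.36 and Lrg1 exceeded monocytes (16.7 ± 12.1 CPM) by 4.88 ± 1.87, each in 14 of 14 mice with the same exact p and adjusted p. Below neutrophils, no neighbouring classes differed in S100a8 or S100a9 after adjustment (smallest adjusted p = 0.811 by the exact permutation test). Neighbours came from an order of the same values, so these are the smallest steps, and classes further apart were not tested. Stromal cells, for example, lay below neutrophils by 10.3 ± 2.4 for S100a8 and 9.68 ± 2.14 for S100a9, further than the nearest classes. The plot of genes by class shows all 18 classes.

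**Figure D2:**
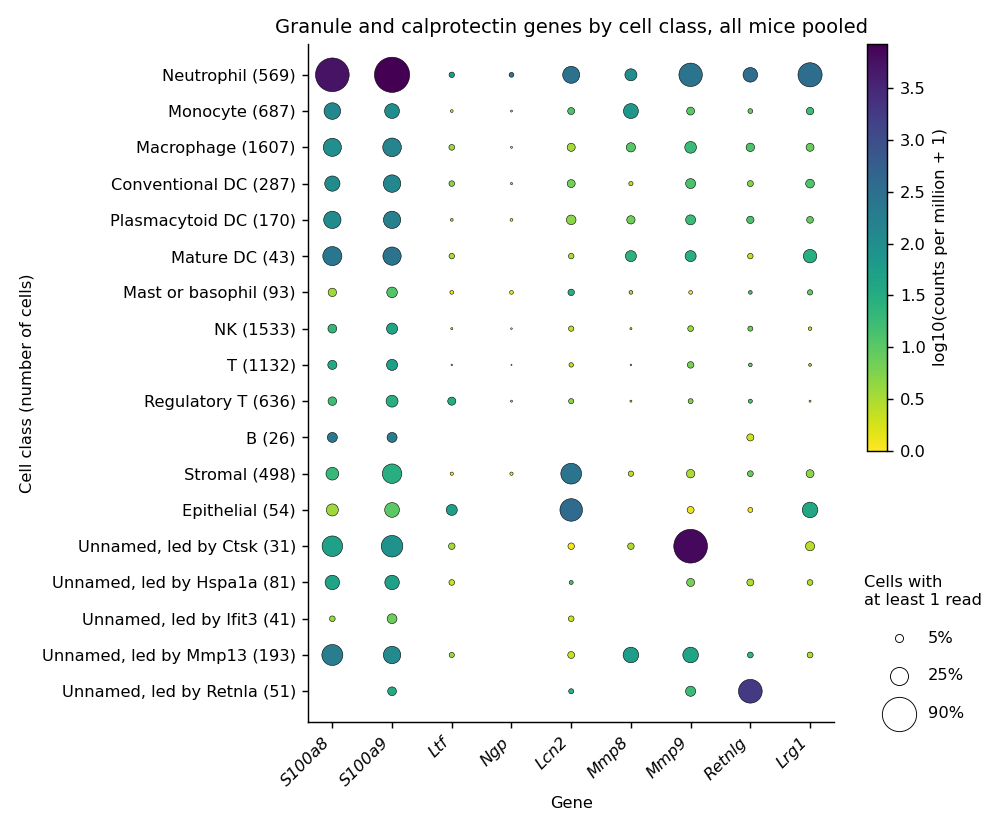
Each dot gives 1 gene (horizontal axis) in 1 cell class (vertical axis, with its number of cells), all mice pooled; its area is the percent of cells with at least 1 read and its colour the level as log10(CPM + 1). S100a8 and S100a9 have their largest dots in neutrophils and smaller ones in the other classes, whereas Lcn2 is large in stromal and epithelial cells, Mmp9 in the unnamed cluster led by Ctsk and Retnlg in the unnamed cluster led by Retnla.

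Calprotectin reads were found in nearly every class. Neutrophils held 77.2% of all S100a9 reads and 74.0% of all S100a8 reads. S100a9 was found in 26.6% of macrophages (median 100614 reads a cell), 16.7% of monocytes (47084 reads), 9.46% of NK cells (27602 reads), 9.45% of T cells (20329 reads) and 29.1% of stromal cells (148176 reads). In carrying T and NK cells, which are not known to make calprotectin, the median was 1 read a cell, against 212 reads in carrying neutrophils, and 2 reads in carrying macrophages. The reads were unevenly held, with up to 460 in a single T cell, 449 in an NK cell and 880 in a macrophage. After thinning to 10000 reads a cell the shares were 11.2% of macrophages, 6.66% of monocytes, 4.66% of NK cells, 5.44% of T cells and 4.50% of stromal cells. Taking the T and NK cell shares as background, the thinned S100a9 share in monocytes (6.66%) lay near it, while S100a8 was found in 15.5% of thinned monocytes and 15.04% of thinned macrophages, against 3.08% of NK cells and 4.28% of T cells. This was not particular to them: thinned S100a8 shares were 23.4% in the cluster led by Mmp13, 17.1% in mature dendritic cells, 14.2% in plasmacytoid dendritic cells, 13.8% in the cluster led by Ctsk and 10.5% in the cluster led by Hspa1a. Of the monocytes with S100a8 26.9% had a high doublet score, against 11.1% of the other monocytes. For S100a9 a high score was found in 11.2% of carrying T cells against 3.02% of the others. It was found in 18.6% against 6.56% of NK cells and in 76.6% against 57.8% of macrophages. The part of doublets in these reads was not tested.

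The ratio of the pair was higher in monocytes than in neutrophils without passing the adjusted threshold, and higher still in an unnamed cluster led by Mmp13, where 5 mice met the minimum of cells and reads. In neutrophils S100a8 had fewer reads than S100a9, with a log2 ratio of -0.67 ± 0.35 (SD, n = 14). The ratio was -0.60 ± 0.51 in macrophages (n = 14), -0.66 ± 0.79 in T cells (n = 12) and -0.82 ± 1.00 in NK cells (n = 10), and none of the 3 passed against neutrophils of the same mice (exact sign-flip permutation test, adjusted p = 1 over 9 classes). In monocytes it was 0.61 ± 1.54 (n = 12), above the neutrophils of the same mouse by 1.33 ± 1.46 and in 10 of 12 mice (exact sign-flip permutation test, p = 0.00879, adjusted p = 0.0791 over 9 classes). In the cluster led by Mmp13 it was 1.35 ± 1.98 (n = 5), above neutrophils by 1.95 ± 2.14 and in 4 of 5 mice (exact sign-flip permutation test, p = 0.188, adjusted p = 0.844; 5 mice cannot reach 0.05). Without cells of high doublet score the monocyte difference was 1.91 in 10 mice (exact permutation test, adjusted p = 0.0117). The monocyte ratio ran from -2.03 in Control_1, with 138 reads of S100a8 against 565 of S100a9, to 3.42 in minP1_PDL1_1, with 827 against 77. The plot of the ratio by class shows that spread.

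**Figure D3:**
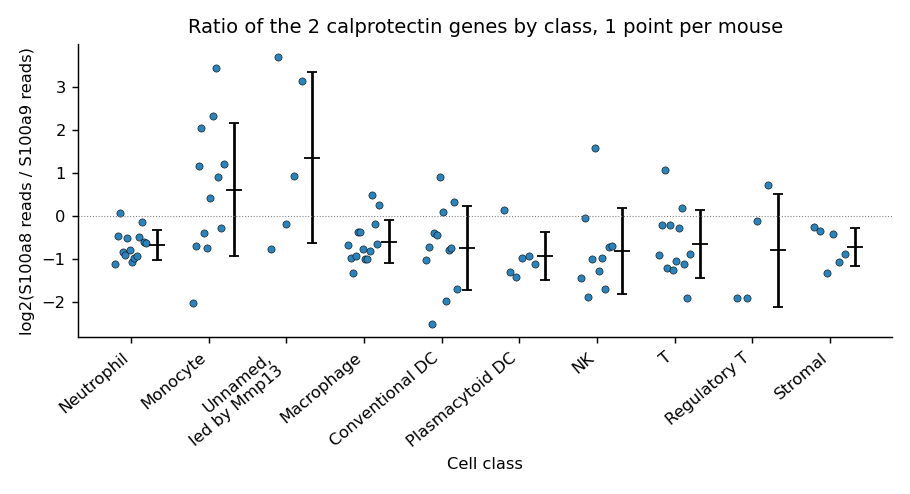
Log2 of S100a8 reads over S100a9 reads (vertical axis) in each cell class (horizontal axis); each point is 1 mouse with at least 10 cells and at least 10 reads of both genes, and the bar is the mean ± SD over mice. Neutrophils lie at -0.67 ± 0.35, macrophages, T cells and NK cells lie around the same value, monocytes spread from -2.03 to 3.42, and the cluster led by Mmp13 has 5 points with a mean of 1.35.

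Most Lcn2 reads came from a cluster named stromal, although the cells were taken as CD45+. That name rests on 3 markers, Mgp, Col1a2 and Sparc, the least allowed, and its leading genes also include Ereg, Tm4sf1 and Hmga2. Whether the cluster holds stromal cells, tumour cells or both was not tested. Stromal cells held 69.7% of them and neutrophils 17.8%. The level was 292 ± 263 CPM in neutrophils (n = 14) and 245 ± 230 CPM in stromal cells (n = 14), higher in neutrophils in 7 of 14 mice (exact sign-flip permutation test, p = 0.327, adjusted p = 0.975), and without cells of high doublet score the difference in log2 grew from 0.48 to 1.64 (exact permutation p = 0.0171, 12 mice). Lcn2 was found in 32.9% of 498 stromal cells, in all 14 mice, with a median of 39 reads in carrying cells and up to 1652, and in 38.9% of 54 epithelial cells (exact binomial 95% interval 25.9% to 53.1%, counting error only), where all 21 carriers and 90.9% of the other cells had a high doublet score. Of the 164 carrying stromal cells 12.2% had a high doublet score, against 11.7% of the other stromal cells. Monocytes followed at 16.1 ± 27.7 CPM, below stromal cells by 4.65 ± 2.27 in 14 of 14 mice (exact permutation p = 0.000122, adjusted p = 0.00198). Lcn2 is also known as a protein of inflamed epithelia.

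Mmp9 was concentrated in a small cluster that was not neutrophils. An unnamed cluster of 31 cells, led by Ctsk, the protease cathepsin K, Atp6v0d2, Mmp9 itself and Acp5, held 78.7% of all Mmp9 reads at 6978 CPM, and 27 of its 31 cells carried the gene. The neutrophil level was 281 ± 118 CPM (n = 14), with 9.94% of the reads. The cells of the cluster had a median of 174199 reads, and 96.3% of the carriers and 100% of the other cells had a high doublet score, and the part of doublets in this level was not tested. Among classes with enough mice, neutrophils exceeded macrophages (20.8 ± 29.5 CPM) in 14 of 14 mice, by 4.36 ± 1.56 in log2. The nearest class by rank, an unnamed cluster led by Mmp13, was measured in 7 mice only and lay below neutrophils in all 7 (exact permutation p = 0.0156, the smallest that 7 mice allow, adjusted p = 0.211).

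Mmp8 was shared with monocytes and with the unnamed cluster led by Mmp13. It reached 116 ± 86.0 CPM in neutrophils and 73.6 ± 49.3 CPM in monocytes (n = 14 each), higher in neutrophils in 9 of 14 mice (exact sign-flip permutation test, p = 0.190, adjusted p = 0.856). By share of cells the order was the opposite, without a test: 17.0% of monocytes carried Mmp8 against 11.1% of neutrophils, and 14.2% against 11.7% after thinning. Monocytes held 34.5% of the reads, neutrophils 24.8% and macrophages 23.0%. Of the 117 carrying monocytes, which came from all 14 mice, 11.97% had a high doublet score against 14.9% of the other monocytes. Without high scores the neutrophil level exceeded the monocyte level by 1.48 in log2 (exact permutation p = 0.0288, 12 mice), against 0.52 with them.

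Retnlg had its highest level in a small unnamed cluster. The cluster of 51 cells was led by Retnla, Alox15, F5 and Ccr3, and Retnla and Retnlg belong to the same resistin-like family. Retnlg was found in 22 of the 51 cells, in 10 mice, at 1816 CPM over all 51 cells, against 339 CPM over all neutrophils; no test is given. S100a9 was found in 5.88% of the 51 cells and S100a8 in none, which allows a share of cells with a read of up to 5.88% (3 counts of the total, counting error only); this does not limit the share of cells expressing it. Retnlg and Retnla were found together in 3 of the 22 cells, and in 1 of 93 neutrophils with Retnlg. How reads of such related genes were assigned is not given in the sources used here, so the split between them is uncertain. The cells were shallow, with a median of 7070 reads, and none of the 51 had a high doublet score.

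Lactoferrin appeared in regulatory T cells. Ltf was found in 32 of 636 regulatory T cells, in 12 of 14 mice, with 1 to 62 reads and a median of 14.5 in carrying cells. It was found in 2 of 1132 other T cells. The mean share over mice was 4.81% ± 4.16 in regulatory T cells and 0.227% ± 0.577 in other T cells (SD, n = 14), from 0% in minP1_1 and minP1_PDL1_4 to 15.1% in PDL1_3; this pair was chosen after the values were seen, and no test is given. Of the 32 cells 4 also carried S100a9, and 28 had a doublet score at or below 0.5. By level, regulatory T cells (27.6 ± 27.2 CPM) lay above neutrophils (54.1 ± 162 CPM) by 0.91 ± 3.15 in log2 and in 9 of 14 mice, although the neutrophil mean was the higher one (exact sign-flip permutation test, p = 0.293, adjusted p = 0.975), and a single neutrophil held 79.1% of the neutrophil reads. Macrophages also carried Ltf, in 41 of 1607 cells, of which 95.1% had a high doublet score, against 61.9% of the other macrophages. Ngp was the member most restricted to neutrophils by reads, with 98.7% of them there.

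Genes of similar distribution over the 18 classes were named by the Pearson correlation of log2(mean CPM + 1), among 13337 genes that reached 10 CPM in a class; the classes share the same mice and 1 count table. Nearest to S100a9 were Gm38525 (r = 0.93), Trim30b (0.90) and Stfa2l1 (0.87), all highest in neutrophils. Nearest to Ngp were Stfa3 (r = 0.98), a stefin, Gm39459 (0.98) and Wfdc21 (0.97). For Lcn2 they were Egr1 (r = 0.83), Map1b (0.82) and Rims2 (0.81), highest in stromal or epithelial cells. For Mmp9 they were Syn1 (r = 0.86), Rufy4 (0.86) and Antxr2 (0.85), highest in the cluster led by Ctsk.

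The treatment groups were compared first within neutrophils, which asks whether the same cells carried more of these transcripts. No member passed an adjusted p of 0.05 in any of 5 comparisons (edgeR quasi-likelihood test on sums per mouse), and neither did any other of the 10225 genes tested (0% called in each comparison). At an unadjusted p under 0.05 the test had 540 genes in PDL1 against Control and 719 in minP1_PDL1 against Control. The sums held 12 to 69 cells a mouse.

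Calprotectin was highest in the neutrophils of mice given both agents. S100a8 measured 3845, 2205 and 5701 CPM in the Control mice, 4698, 4599, 6076 and 5956 CPM in the minP1 mice, 5082, 4606 and 2940 CPM in the PDL1 mice, and 6478, 10879, 8444 and 6468 CPM in the minP1_PDL1 mice. All 4 mice given both agents thus lay above all 10 others. The share of all tested genes with the same separation was not counted, so nothing particular to S100a8 is shown by it. The edgeR difference from Control was 1.12 ± 0.28 in log2 (SE; adjusted p = 0.473), and it was 0.94 ± 0.27 from PDL1 and 0.65 ± 0.25 from minP1 (adjusted p = 1 for both). S100a9 measured 8315, 3059 and 5454 CPM in Control, 8421, 8671, 8677 and 10298 CPM in minP1, 10654, 9134 and 5628 CPM in PDL1, and 9148, 11969, 12811 and 10013 CPM in minP1_PDL1. The minP1_PDL1 mice lay above the Control mice and overlapped the PDL1 and minP1 mice, and the edgeR difference from Control was 1.06 ± 0.26 (SE; adjusted p = 0.473). The plot of neutrophil levels shows both genes.

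**Figure D4:**
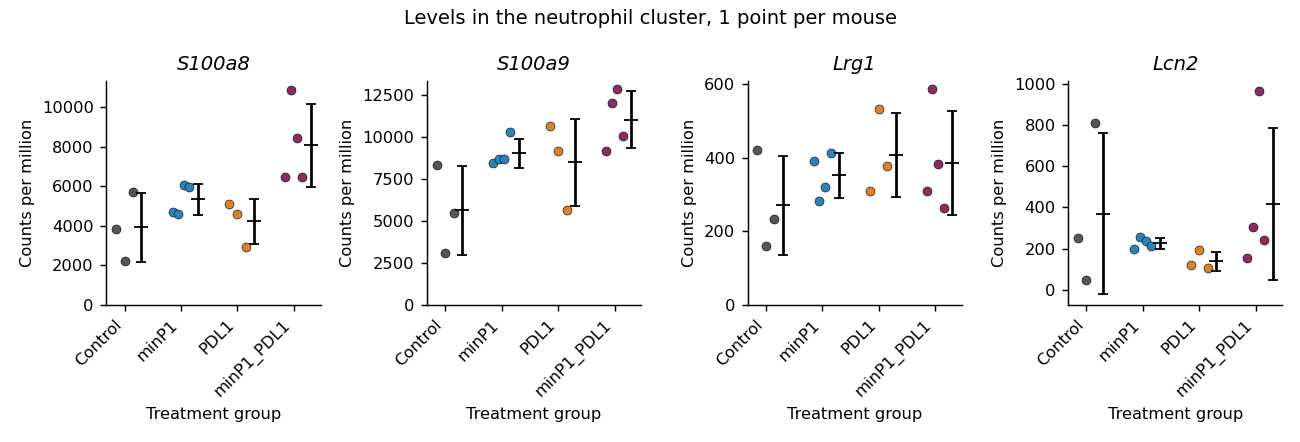
Level in CPM (vertical axes) of S100a8, S100a9, Lrg1 and Lcn2 over the cells of the neutrophil cluster, by treatment group (horizontal axes); each point is 1 mouse and the bar is the group mean ± SD (n = 3 or 4). S100a8 in the 4 minP1_PDL1 mice, 6468 to 10879 CPM, lies above all other mice, and no difference passed the adjusted test.

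The makeup of the cluster also varied between the groups, and its part in these differences was not tested. A high doublet score was found in 47.4% ± 13.8 of the neutrophils of Control mice, 34.9% ± 10.5 of those of minP1 mice, 33.3% ± 8.3 for PDL1 and 29.6% ± 7.3 for minP1_PDL1 (SD over mice). The summed level of 15 neutrophil markers outside the 10 genes was 6644 to 11651 CPM in Control and 13644 to 18684 CPM in minP1_PDL1, without overlap. It was 10995 to 15971 CPM in minP1 and 10169 to 16772.5 CPM in PDL1. A separation of minP1_PDL1 from Control was thus not particular to the calprotectin pair. Markers of other cells were also found in the cluster throughout. The summed level of 11 macrophage markers, none of them at 0, was 1091 to 1998 CPM in Control, 410 to 2297 CPM in minP1, 1345 to 1717 CPM in PDL1 and 394 to 2207 CPM in minP1_PDL1. That of 9 T cell markers, none at 0, was 1794 to 2433 CPM in Control, 1435 to 2243 CPM in minP1, 1298 to 2066 CPM in PDL1 and 1049 to 2305 CPM in minP1_PDL1. Over 7 markers of one dendritic cell type, which include Xcr1 and Clec9a, it was 836 to 1143 CPM in Control and 526 to 653 CPM in minP1_PDL1. It was 601 to 1415 CPM in minP1 and 832 to 1223 CPM in PDL1. Among lists of other cells, only this and the fibroblast or stromal list had Control and minP1_PDL1 apart. The latter went the other way, with 0 to 3.12 CPM in Control and 4.55 to 16.4 CPM in minP1_PDL1. The part of these cells in the result was not tested. Without cells of high score, and with at least 5 cells a mouse, the S100a8 ranges overlapped, 6314 to 23821 CPM in Control and 14058 to 24424 CPM in minP1_PDL1, and the difference fell to 0.65 ± 0.35 (edgeR, adjusted p = 0.494). S100a9 did not overlap there, with 11628 to 19077 CPM against 19386 to 24818 CPM, and a difference of 0.86 ± 0.20 (edgeR, adjusted p = 0.295). Without the 4 cells rich in Ngp the minP1_PDL1 mice measured 6478, 6783, 4344 and 6468 CPM of S100a8, which no longer lay above all other mice (minP1_4 had 5956 CPM) but still above Control (2205 to 3845 CPM). S100a9 there measured 8378 to 11160 CPM in minP1_PDL1 and 3059 to 8315 CPM in Control. Without Control_2 the differences were 0.82 ± 0.26 for S100a8 and 0.76 ± 0.22 for S100a9 (edgeR, adjusted p = 0.625 for both).

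Lrg1 measured 420, 159 and 233 CPM in Control, 391, 282, 320 and 412 CPM in minP1, 310, 532 and 377 CPM in PDL1, and 308.6, 586, 382 and 263 CPM in minP1_PDL1, and all groups overlapped. Its edgeR difference of minP1_PDL1 from Control was 0.60 ± 0.34 (SE; adjusted p = 0.757) and turned to -0.75 ± 0.40 without cells of high doublet score (adjusted p = 0.487). Mmp9 measured 109 to 312.3 CPM in Control, 180 to 515 CPM in minP1, 112 to 320 CPM in PDL1 and 178 to 420 CPM in minP1_PDL1. Its difference of minP1_PDL1 from Control was 0.54 ± 0.45 (edgeR, adjusted p = 0.881).

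In Control and minP1_PDL1 the group means of Ngp, Lcn2, Mmp8 and Retnlg held a large part from the cells rich in Ngp, while no PDL1 mouse had such a cell. Ngp measured 0, 0 and 345 CPM in Control and 0.955, 467, 2163 and 0 CPM in minP1_PDL1, and without the 4 cells rich in Ngp the minP1_PDL1 mean dropped from 658 to 0.543 CPM. Lcn2 measured 252, 49.4 and 809 CPM in Control, 196, 255, 239 and 211 CPM in minP1, 118, 191 and 105 CPM in PDL1, and 152, 303.96, 966 and 243 CPM in minP1_PDL1. Control_3 and minP1_PDL1_3 stood out, and without their cell rich in Ngp they measured 139 and 61.6 CPM. The Lcn2 mean without these cells was 147 CPM in Control, 209 CPM in minP1 and 146 CPM in minP1_PDL1, beside 138 CPM in PDL1. Retnlg measured 1358 CPM in Control_3 and 347 CPM there without that cell. Ltf measured 617 CPM in minP1_PDL1_3 and at most 38.9 CPM in every other mouse. Mmp8 measured 41.6 to 242 CPM in Control, 43.6 to 172 CPM in minP1, 38.4 to 92.7 CPM in PDL1 and 54.6 to 316 CPM in minP1_PDL1.

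Over all kept cells, S100a8, S100a9 and Lrg1 had higher group means in the antibody-treated groups, and no difference passed the edgeR test. In such a sum, fewer cells of a type and less RNA per cell cannot be told apart. S100a9 measured 192, 187 and 233 CPM in Control, 320, 257, 391 and 282 CPM in minP1, 416, 711 and 444 CPM in PDL1, and 567, 413, 806 and 600 CPM in minP1_PDL1. No Control mouse reached the lowest mouse of any other group, and the 2 groups with antibody lay above the 2 without. The share of all tested genes with such separations was not counted, here or for the genes below. The edgeR difference from Control was 1.36 ± 0.25 in PDL1 (SE; adjusted p = 0.571) and 1.56 ± 0.24 in minP1_PDL1 (adjusted p = 0.264), against medians of -0.002 and 0.006 over all 18410 genes. No member and no other gene passed (0% called in each comparison; 1211 and 1915 genes had an unadjusted p under 0.05). DESeq2, run as another test, called S100a9 and Lrg1 in PDL1 against Control and S100a8, S100a9 and Lrg1 in minP1_PDL1 against Control. In the latter edgeR called S100a9 when the second PDL1 mouse was left out (1.56 ± 0.20, edgeR, adjusted p = 0.0401). The shares of all genes called in these runs are not given here, so nothing particular to the members is shown by them.

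S100a8 and Lrg1 showed more overlap between groups than S100a9. S100a8 measured 103.2, 122 and 232 CPM in Control, 179, 164, 283 and 161 CPM in minP1, 220, 400 and 252 CPM in PDL1, and 456, 367, 541 and 417 CPM in minP1_PDL1. The minP1_PDL1 mice lay above all others but PDL1_2, and Control_3 lay above PDL1_1 and 3 of the minP1 mice. Its difference from Control was 0.93 ± 0.32 in PDL1 (edgeR, adjusted p = 0.748) and 1.56 ± 0.31 in minP1_PDL1 (adjusted p = 0.300). Lrg1 measured 8.84, 7.34 and 12.1 CPM in Control, 13.4, 8.34, 21.8 and 12.5 CPM in minP1, 15.8, 39.7 and 30.9 CPM in PDL1, and 24.7, 24.0, 33.1 and 23.5 CPM in minP1_PDL1. The antibody-treated mice all lay above the Control mice, while minP1 overlapped Control and PDL1, with differences of 1.62 ± 0.36 and 1.498 ± 0.348 (edgeR, adjusted p = 0.595 and 0.300).

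**Figure D5:**
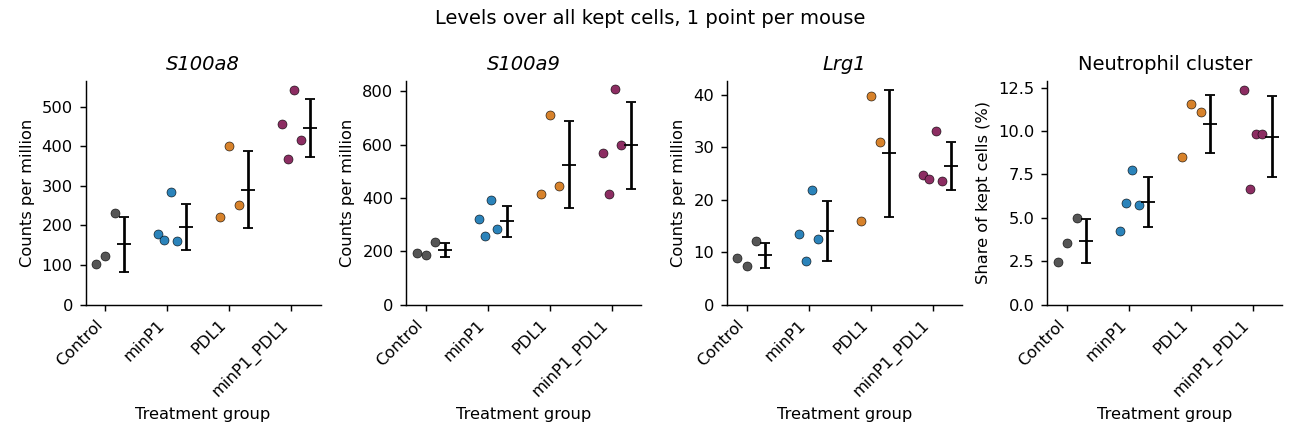
Level over all kept cells in CPM of S100a8, S100a9 and Lrg1, and the share of kept cells in the neutrophil cluster in percent (vertical axes), by treatment group (horizontal axes); each point is 1 mouse and the bar is the group mean ± SD (n = 3 or 4). S100a9 lies between 187 and 233 CPM in Control and between 413 and 806 CPM in minP1_PDL1, and the neutrophil share is 3.67% ± 1.26 in Control, 10.4% ± 1.7 in PDL1 and 9.68% ± 2.35 in minP1_PDL1.

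The share of kept cells in the neutrophil cluster also varied between the groups, and its relation to these levels was not tested. Control mice had 3.67% ± 1.26, minP1 mice 5.90% ± 1.42, PDL1 mice 10.4% ± 1.7 and minP1_PDL1 mice 9.68% ± 2.35. With the neutrophil cluster left out, the difference of minP1_PDL1 from Control was 0.54 ± 0.38 for S100a9 (edgeR, adjusted p = 0.706), 1.10 ± 0.36 for S100a8 and 1.66 ± 0.50 for Lrg1 (adjusted p = 0.497 for both). Leaving out the stromal and epithelial clusters kept S100a9 at 1.398 ± 0.221 (edgeR, adjusted p = 0.132).

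Outside neutrophils no member passed in any comparison. In monocytes and macrophages 8 members were tested among 14810 genes and 0% of genes were called; S100a8 differed by 1.10 ± 0.35 in minP1_PDL1 against Control (edgeR, adjusted p = 0.742) and by 1.02 ± 0.31 against minP1 (adjusted p = 0.542). Mmp9 there differed by 2.69 ± 1.11 in PDL1 against Control (edgeR, adjusted p = 0.984). The PDL1 mice measured 3.11, 89.0 and 5.43 CPM and the Control mice 3.84 to 6.13 CPM, so PDL1_2 alone lay above Control. In T and NK cells 8 members were tested among 14139 genes; 1 gene, no member, was called in minP1_PDL1 against Control, which is 0.00707%, and 0% in the other comparisons. Ngp was too rare to be tested in either.

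Levels outside neutrophils were then set against the neutrophil share of each mouse, which asks whether they moved together. Of 17 relations with enough reads, none passed (permutation tests with 100000 draws, Benjamini-Hochberg over 17). In T and NK cells S100a9 gave r = -0.03 (rho = -0.02, n = 14, permutation p = 0.92 and 0.952, adjusted p = 0.92 and 0.976) and S100a8 gave r = -0.06 (rho = -0.08, permutation p = 0.845 and 0.797, adjusted p = 0.92 and 0.976). In monocytes and macrophages S100a8 gave r = 0.58 (rho = 0.66, permutation p = 0.0307 and 0.013, adjusted p = 0.469 and 0.222), 0.59 without the 2 mice farthest from the median share, and 0.11 on deviations from the group means. That within-group value was lower and was not tested. The other relations had r between -0.32 and 0.52. On deviations from the group means Mmp8 in monocytes and macrophages gave r = 0.74 (0.47 overall), Lcn2 0.48 (0.44 overall) and Lrg1 0.43 (0.52 overall); these within-group values were not tested.

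Other genes of the pathway gave no call in any neutrophil comparison. Among lists of related genes, the difference of minP1_PDL1 from Control had a median of 0.41 over 20 tested genes of specific and gelatinase granules (14 above 0) and 0.72 over 10 of secretory vesicles and mature neutrophils (8 above 0), beside 0.60 over the 9 members and 0.06 over all 10225 genes. The median was 0.07 over 6 other S100 genes, 0.24 over 15 receptors and partners, 0.62 over 11 transcription factors of granule genes, 1.24 over 3 inducing cytokines, 0.74 over 2 azurophil list genes and -1.21 over 12 cell cycle genes (1 above 0). The doublet share of the cluster also differed between these groups, as given above, and its part in the cell cycle values was not tested. These lists were chosen with earlier results known, and nothing particular to them is shown.

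The 2 most abundant genes of each list give the level of the programme around the members. Il1r2, a decoy receptor for interleukin 1, stood at 1429 ± 470 CPM (SD, n = 14) and Trem1, an activating receptor, at 851 ± 270 CPM. Lyz2, lysozyme, stood at 1926 ± 803 CPM and Itgam, the CD11b integrin chain, at 499 ± 131 CPM. S100a11 stood at 1747 ± 342 CPM and S100a6 at 1660 ± 370 CPM, below the calprotectin pair. Il1b, interleukin 1 beta, reached 10796 ± 2622 CPM and was found in 99.1% of neutrophils, and Tnf reached 368 ± 254 CPM. Cebpb, a C/EBP factor of mature and activated granulocytes, reached 1479 ± 311.9 CPM and Junb 1150 ± 237 CPM. Cd14 reached 2126 ± 469 CPM and Cd44 1433 ± 274 CPM. Srgn, the proteoglycan on which granule proteins are packed, reached 10413 ± 2064 CPM and Cd63, a granule membrane protein, 108 ± 44.8 CPM. Hmgb2, a chromatin protein of the cell cycle list, reached 464 ± 148 CPM and Tubb5, a tubulin, 263 ± 112 CPM.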

How the data were processed

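Cells of 14 mice, marked by hashtag, are held in 1 count table. Per the labels, reads were trimmed and aligned to the mm10 transcriptome, counted with the authors' own scripts, and barcodes were assigned to mice by hashtag; per the submitters' processing notes the tools include cutadapt 2.10, Bowtie2 2.3.4.1 and Seurat 2.3.4. The values deposited are raw counts of reads per gene and barcode, not collapsed to molecules (median 10 per entry above 0). Of 8262 barcodes, 147 (141 hashtag doublets, 6 without a hashtag) were not used; 7732 of 8115 had at most 25% mitochondrial reads and at least 200 genes, where the study states 7613 cells after its own quality check. Clustering (2000 variable genes, 30 principal components, 20 neighbours, Leiden resolution 1) left out the members and other granule genes; a cluster was named where at least 3 fixed markers were among its 50 leading genes. Each cell's doublet score is the fraction of in silico doublets in its 50 nearest neighbours; 0.5 took 73.6% of those doublets, and high-scoring cells were kept.

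Counts were summed per mouse (at least 10 cells) and tested with edgeR 4.0.16 (TMM, filterByExpr, quasi-likelihood, Benjamini-Hochberg over all genes, differences in log2, all groups in 1 fit), with DESeq2 1.42.0 as an alternative; the edgeR script was tested on simulated data. Class levels used exact sign-flip tests over mice. Intervals cover counting error only, since reads of 1 molecule are not independent. All members are named, from each list the genes past the threshold or else the 2 most abundant, and of genes with a like distribution the 3 of highest correlation. The members, lists and tests were chosen with earlier results of these data known.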

Additional observations from a re-analysis of the deposited data

Results flagged for a closer look

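In the groups of 4 mice, 36 sets of values were examined for 1 mouse standing far from the other 3 (Dixon's criterion at 95%), and 11 were found. The criterion gives about 1 in 20 by chance for independent, normally distributed values. Some sets here hold values of 0, and the sets over all kept cells include the neutrophils. An excess over chance is therefore not shown. In neutrophils these were S100a9 in minP1_4 (10298 CPM, next 8677 CPM), Ltf in minP1_2 (34.8 CPM, next 2.25 CPM) and in minP1_PDL1_3 (617 CPM, next 38.9 CPM), Ngp in minP1_3 (64.2 CPM, next 0) and Retnlg in minP1_PDL1_2 (1123 CPM, next 443 CPM). Over all kept cells they were S100a8 in minP1_3 (283 CPM, next 179 CPM), Ltf in minP1_2 (2.76 CPM, next 0.941 CPM) and minP1_PDL1_3 (43.3 CPM, next 7.81 CPM), Ngp in minP1_3 (2.35 CPM, next 0.0232 CPM) and minP1_PDL1_3 (109.7 CPM, next 13.1 CPM), and Lrg1 in minP1_PDL1_3 (33.1 CPM, next 24.7 CPM). Each of minP1_3, minP1_PDL1_2 and minP1_PDL1_3 holds 1 of the 4 neutrophils rich in Ngp.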

How the results depend on the processing

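The count of members called by edgeR was 0 in all 20 comparisons and stayed 0 in all 20 with RLE scaling and without the mitochondrial filter. Minimums of 5 or 20 cells were run for the 5 neutrophil comparisons alone, and gave 0. The same holds for clustering with the members and other granule genes. Without the filter on low counts it was 2 for neutrophils in minP1_PDL1 against Control (S100a8 and S100a9) and 2 against PDL1, and with the marker gate, which took 2538 cells, 1984 of them outside the neutrophil cluster, it was 1 (S100a9). With DESeq2 over all kept cells it was 2 in PDL1 against Control, 3 in minP1_PDL1 against Control and 3 against minP1. Leaving out 1 mouse gave 0 to 1 in minP1_PDL1 against Control over all kept cells and 0 in the other 19. For the settings with calls the shares of all genes called are not given here, so nothing particular to the members is shown. Same-numbered mice did not deviate together (correlations of -0.04 to 0.04 over 19 pairs in neutrophils and -0.07 to 0.19 over all kept cells, 2 of them over 0.1), so the numbers do not pair the mice; with the replicate block the count of members called was 0 throughout, and S100a8 and S100a9 in neutrophils of minP1_PDL1 against Control differed by 1.17 and 1.11. Without high doublet scores the log2 difference became 1.64 for Lcn2 in neutrophils over stromal cells, 1.48 for Mmp8 over monocytes and 3.92 for Mmp9 over the Mmp13 cluster (2 mice left, so the exact test cannot pass), and the ratio difference 1.91 in monocytes, 0.047 in NK cells (from -0.20) and 0.060 in T cells (from -0.00); the cause was not tested. Ngp in neutrophils over conventional dendritic cells (2.75, higher in 6 of 14 mice, exact permutation p = 0.0313, adjusted p = 0.356) lay between 2.11 and 2.97 with 1 mouse left out, and its exact permutation p rose to 0.0625 without Control 3, minP1 3, PDL1 1 or minP1_PDL1 1, 2 or 3. Mmp9 over the Mmp13 cluster was not run with the members and other granule genes in the clustering, where that cluster was not formed. Alternatives without high doublet scores in neutrophil group tests, without stromal, epithelial or neutrophil clusters, without the cells rich in Ngp, and leaving out mice for class levels were chosen after seeing the data. Neutrophil sums held 416358 to 2320040 reads a mouse.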
